A study of Mus musculus with 4 samples.

Results

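Human cytotoxic T cells were examined among the human leukocytes of mice with humanised immune systems. Across 4 single-cell RNA libraries, a cell was counted as a cytotoxic T cell when more than 50% of its unique molecular identifiers (UMIs, each standing for 1 captured RNA molecule) fell on human genes, at least 500 human genes were detected, CD3D, CD3E and CD3G together had at least 1 UMI, FOXP3 and MS4A1 had none, and at least 2 of the 4 genes GZMH, GNLY, GZMB and FGFBP2 had a UMI. In all, 393 of 17842 human cells met this rule, so that the cells were chosen by measured expression of GZMH, GNLY, GZMB, FGFBP2 and the gate genes, and the 4 genes and everything that separates these cells from other T cells describe the selection and were not tested. The 12123 cells that passed the CD3, FOXP3 and MS4A1 criteria served as the T cell gate, and those with fewer than 2 of the 4 genes are called the other T cells.

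The hosts were huNSG-SGM3 mice, that is, NSG-SGM3 mice (NOD.Cg-Prkdcscid, with IL2rgtm1Wjl and the transgene Tg(CMV-IL3,CSF2,KITLG)1Eav/MloySzJ) engrafted as irradiated pups with CD34+ stem cells from human cord blood. All were labelled as 15 weeks old, without the step to which this age applies, and the paper places surgery at 15 weeks after engraftment. All carried the same transgene, which places human IL3, CSF2 and KITLG under a CMV promoter. Every human cell studied here had thus developed in the presence of these 3 cytokines. Naïve mice received no treatment, sham mice had a T9 laminectomy alone, and SCI mice had a spinal cord injury at T9, with tissue taken at 7 days after surgery in both operated groups. Blood was obtained from all 3 groups and injured cord from SCI mice only, and cells were sorted for human CD45. The naïve and sham hosts were male, whereas the SCI blood and SCI cord pools came from male and female hosts. Each condition was therefore 1 library of pooled cells, and condition, pooled animals, stem cell donors and library cannot be told apart. No test between conditions was possible, and intervals given below are 95% exact intervals for counting error only.

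Cytotoxic T cells kill target cells by releasing granules that hold perforin, which opens membranes, together with granzymes, which are proteases, and granulysin, which damages membranes of cells and microbes. Most cells of this kind in human blood are CD8+ T cells that recognise antigen through an alpha-beta T cell receptor, but gamma-delta T cells, some CD4+ T cells and natural killer (NK) cells use the same granule. GZMH and GZMB are granzymes encoded side by side in the genome, GNLY encodes granulysin, and FGFBP2 is a secreted protein typical of highly cytotoxic lymphocytes. As GZMH and GZMB are close relatives in sequence, the division of reads between them is uncertain.

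The libraries held between 4206461 and 36487994 UMIs in all, of which the cytotoxic T cells contributed 490473 (naïve), 525859 (sham) and 941310 (SCI) human UMIs in blood and 83808 in cord. Their median depth was 3211 UMIs in naïve, 5254 in sham, 4210 in SCI blood and 5070 in cord, against 3597, 5221, 4635 and 8119 for the other T cells. Up to 16 barcodes were shared by a pair of libraries, but 0 of the cytotoxic T cells carried a shared barcode. A doublet caller, which marks a set share of the highest scores per library, marked 14 of the 393 cells. These were 5.69%, 2.47% and 2.76% of the cytotoxic T cells in naïve, sham and SCI blood, against 5.36%, 3.96% and 5.01% of all human barcodes. In cord that share came to 0%, so no cord cell could be marked. Of the 393 cells, 8 lay outside a quality filter of 3 median absolute deviations. Of the blood cells, up to 46.8% of all UMIs of a cell fell on mouse genes, while the median was at most 0.273%.

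Cytotoxic T cells made up 123 of 6592 human cells in naïve blood (1.87%, interval 1.55 to 2.22%), 81 of 4897 in sham blood (1.65%, 1.32 to 2.05%) and 181 of 6226 in SCI blood (2.91%, 2.50 to 3.36%). The SCI blood interval lay above both of the others, which overlapped each other. Within the T cell gate the shares were 3.00% (2.50 to 3.57%), 2.38% (1.90 to 2.95%) and 3.96% (3.42 to 4.57%). There the SCI blood interval overlapped that of naïve blood and lay above that of sham blood only. In the injured cord, 8 of 127 human cells met the rule (6.30%, 2.76 to 12%), which overlapped the SCI blood interval. With every cell reduced to 1000 human UMIs before the rule was applied, the blood shares became 1.31%, 1.23% and 1.79%, and the order of the libraries stayed the same. With at least 3 of the 4 genes required they were 0.910%, 1.16% and 1.85%, with naïve then below sham blood. A higher share in SCI blood was not particular to these cells. The GZMK-positive CD8 T cells defined below numbered 550, 496 and 1139 of the same human cells, so their share was also highest in SCI blood.

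GNLY was the most widely detected of the 4 genes, in 96.7% (naïve), 98.8% (sham) and 97.8% (SCI) of the blood cytotoxic T cells. GZMH was found in 69.1%, 90.1% and 87.8%, GZMB in 53.7%, 76.5% and 64.1%, and FGFBP2 in 42.3%, 28.4% and 38.1%. Of all 393 cells, 155 carried exactly 2 of the 4 genes, 157 carried 3 and 81 carried all 4. The combination of GNLY and FGFBP2 alone brought in 24 of the naïve cells but only 2 sham and 11 SCI blood cells. Just outside the rule stood 566 T cells with exactly 1 of the 4 genes. In these, PRF1 was detected in 49.3%, 39.8% and 35.2% of cells in naïve, sham and SCI blood, whereas cells just inside, with exactly 2 genes, had it in 81.0%, 79.2% and 71.2%, so the rule cuts through a range rather than at a gap. A further 19 human cells had 2 or more of the 4 genes but no CD3 and no MS4A1 UMI, and 3 and 23 cells were left out for FOXP3 and MS4A1.

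The name was checked against 4 markers of cytotoxic T cells, GZMH, GNLY, FGFBP2 and ZNF683. Only ZNF683, which encodes the transcription factor Hobit of effector and tissue-resident lymphocytes, played no part in the rule. It had a UMI in 13.8% (naïve), 23.5% (sham) and 34.3% (SCI) of the blood cytotoxic T cells, against 1.69%, 1.90% and 2.21% of the other T cells and at most 0.0790% of B cells, so that it marked a minority of the cells. Of the markers of other lineages, those of myeloid cells and platelets were near 0 in blood. The summed level of 10 monocyte genes was at most 18.4 CPM (the usual counts-per-total scale, here a gene's UMIs against all human UMIs of the summed cells with ribosomal and mitochondrial genes left out), and that of basophil or mast cell, eosinophil or neutrophil, and platelet or erythroid genes at most 7.89, 2.63 and 4.23 CPM. Summed over 9 NK cell markers, the level was 260 CPM in naïve, 163 in sham and 237 CPM in SCI blood, against 79.5, 102 and 84.8 CPM in the other T cells, and 7, 5 and 13 cells carried 2 or more of these markers. Summed over 5 markers of regulatory T cells, the level was 415, 390 and 443 CPM, against 572, 531 and 389 CPM.

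The B cell list gave 5789 CPM in naïve blood but 44.4 in sham and 88.9 CPM in SCI blood, and the plasma cell list 1270, 145 and 188 CPM. A single naïve cell held most of this signal, with 2092 of the 2180 IGHM UMIs and 385 of the 400 JCHAIN UMIs of all naïve cytotoxic T cells. It was not marked as a doublet and had 3 CD3D UMIs. IGHM was also found in 48.8% of the naïve cytotoxic T cells and in 54.7% of the other naïve T cells, against 3.70% and 7.96% in sham blood, so single IGHM UMIs were as widespread in other T cells of that library.

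Relative to the other T cells, the blood cytotoxic T cells showed the profile on which such cells are recognised. Of 2904 genes with at least 100 UMIs, 72 were at least 2-fold higher and 13 at least 2-fold lower in all 3 blood libraries. ADGRG1 (GPR56, a surface receptor of cytotoxic lymphocytes), the inhibitory NK receptor KLRC1, the transcription factor TBX21 (T-bet) and the granule membrane protein NKG7 led the list, followed by the chemokine CCL4, the transcription factor ASCL2, the chemokine receptor CX3CR1, PRF1, the NK receptor chain KLRD1 (CD94) and the cystatin CST7. PRF1 was at 736, 555 and 550 CPM in naïve, sham and SCI blood, compared with 66.0, 43.5 and 45.8 CPM in the other T cells. NKG7 was at 4067, 3180 and 3956 CPM against 256, 131 and 211. The 10 genes at the low end included LEF1, TCF7 and CCR7, which mark naive and central memory T cells, as well as LTB, BIRC3 and TIMP1. CCR7, the lymph node homing receptor, was at 129, 83.8 and 59.3 CPM against 388, 414 and 418 CPM.

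GZMK-positive CD8 T cells, defined here as other T cells with a CD8A or CD8B UMI, no CD4 UMI and a GZMK UMI, were the closest population, numbering 2192 cells. GZMK, another granzyme, was itself detected in 87.8%, 90.1% and 70.2% of the cytotoxic T cells of naïve, sham and SCI blood, so the populations did not part over this gene. Besides ADGRG1 and TBX21, the genes standing highest in the cytotoxic T cells against GZMK-positive CD8 T cells were HOPX, TRDC, CEBPD, PRDM1, CCL4, ZNF683, ASCL2 and CDKN3. HOPX, a cofactor found in terminally differentiated effector T cells, was at 260, 318 and 742 CPM against 10.9, 24.2 and 37.6 CPM. CEBPD, a transcription factor, was at 63.1, 210 and 215 CPM against 6.12, 4.51 and 2.92 CPM. The lowest included CCR7, LEF1, TCF7, LTB and IL7R, the receptor for the survival cytokine IL-7.

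**Figure D1:**
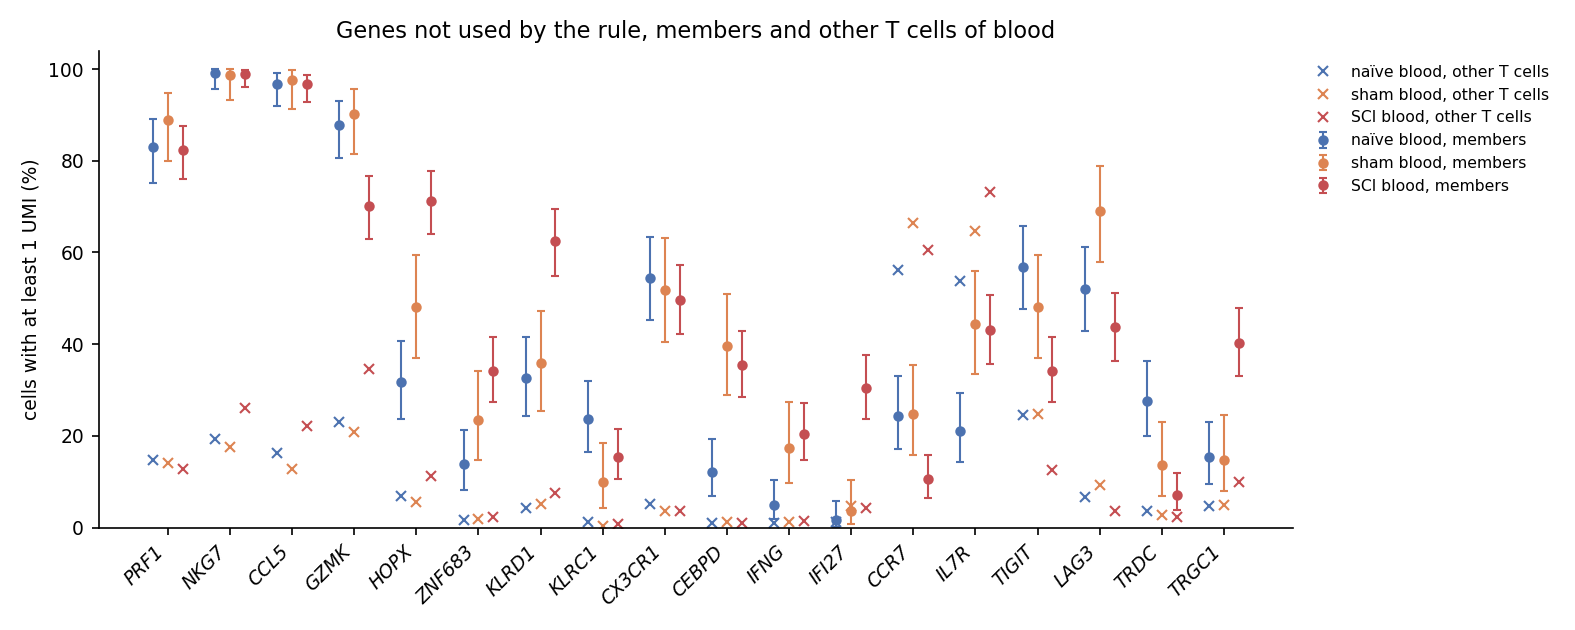
Share of cells with at least 1 UMI (%, vertical axis) for 18 genes that the rule did not use, in the cytotoxic T cells (points, labelled members, with 95% exact binomial intervals) and in the other T cells (crosses) of naïve (blue), sham (orange) and SCI blood (red). PRF1, NKG7 and CCL5 are high in all 3 libraries, whereas HOPX, KLRD1, IFI27 and TRGC1 stand highest in SCI blood at 71.3%, 62.4%, 30.4% and 40.3%, and TRDC is highest in naïve blood at 27.6%.

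CD8 transcripts were the usual coreceptor of these cells. A CD8A or CD8B UMI without CD4 was found in 69 of 123 cells in naïve (56.1%, 46.9 to 65.0%), 57 of 81 in sham (70.4%, 59.2 to 80.0%) and 119 of 181 in SCI blood (65.7%), and in 7 of 8 cord cells (87.5%). CD4 without CD8 was found in 3, 1 and 5 blood cells (2.44%, 1.23% and 2.76%) and in 0 of the 8 cord cells. Both coreceptors were seen in 2, 4, 9 and 1 cells. Neither was seen in 49, 19 and 48 blood cells (39.8%, 23.5% and 26.5%) and in 0 cord cells. In the other T cells the CD8-only share was 20.3%, 23.3% and 34.3% and the CD4-only share 25.9%, 34.3% and 26.8%, so the cytotoxic T cells were richer in CD8 and poorer in CD4 in all 3 blood libraries. B cells, which should lack both, gave at most 0.981% CD8-only and 1.03% CD4-only cells in blood.

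The CD8-only share was sensitive to depth. After each cell had been reduced to 1000 UMIs it was 42.6%, 53.1% and 42.2% in naïve, sham and SCI blood and 37.5% in cord, with the sham library still highest among the blood libraries. The CD8A and CD8B chains were seen together in 37, 47 and 76 blood cells, while CD8A alone was seen in 28, 10 and 45 and CD8B alone in 6, 4 and 7. The cells without a coreceptor UMI were shallower, at a median of 2739, 3744 and 3212 UMIs against 3917, 5551 and 4350 in the CD8-only cells.

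**Figure D2:**
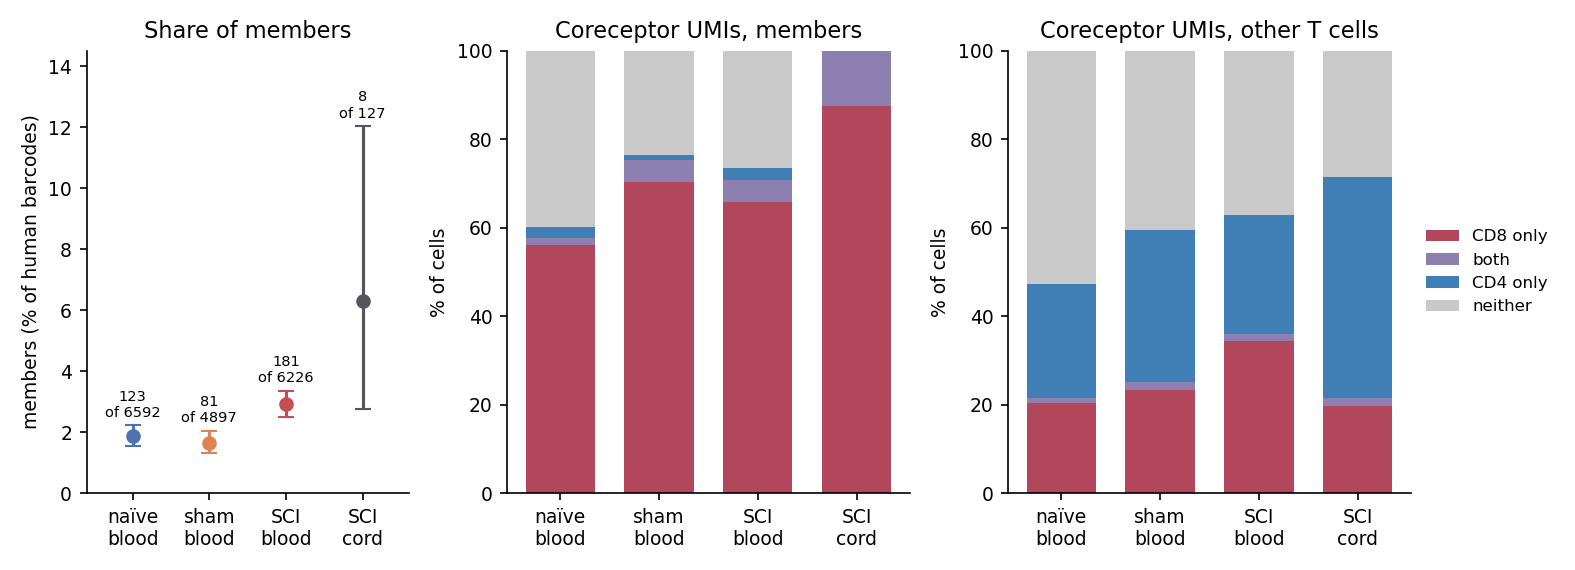
Left, cytotoxic T cells (members) as a share of human cells (%) in each library with 95% exact binomial intervals, highest in the blood libraries at 2.91% in SCI blood. Middle and right, share of cytotoxic T cells and of other T cells (%) by coreceptor UMIs, with CD8-only cells at 56.1%, 70.4%, 65.7% and 87.5% of the cytotoxic T cells in naïve, sham and SCI blood and in cord.

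A T cell receptor chain accompanied nearly every cell. A UMI of TRAC, TRBC1 or TRBC2, the constant regions of the alpha and beta chains, was present in 98.4%, 97.5% and 96.7% of the cytotoxic T cells of naïve, sham and SCI blood and in all 8 cord cells. TRDC, the constant region of the delta chain, was detected in 34 of the 123 naïve cells, in 11 of the 81 sham cells and in 13 of the 181 cells of SCI blood (27.6%, 13.6% and 7.18%), and in 0 of the 8 cord cells, where 3 counts of the total would allow a share of cells with a UMI of up to 37.5%. The naïve share (20.0 to 36.4%) lay above the SCI blood share (3.88 to 12%), and after reduction to 1000 UMIs the shares were 15.6%, 11.1% and 5.56%. Among the other T cells TRDC was found in 3.65%, 2.80% and 2.28%, and in blood B cells in at most 0.654%.

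TRDC was concentrated in cells without a coreceptor UMI. It was present in 32 of the 49 naïve cells with neither coreceptor, in 8 of 19 sham cells and in 12 of 48 SCI blood cells, but in only 1 of 69, 2 of 57 and 1 of 119 CD8-only cells. Of the 58 TRDC-positive cells, 22 had no TRAC UMI. The TRDC-positive cells of the 3 libraries did not look alike. GZMK was found in 94.1% (naïve), 63.6% (sham) and 38.5% (SCI blood) of them, whereas KLRD1 was found in 11.8%, 81.8% and 100%, and HOPX in 8.82%, 63.6% and 84.6%. In SCI blood, 6 of the 12 TRDC-positive cells without coreceptor had a single CD3 UMI and 5 had a UMI of the NK cell genes KLRF1, NCAM1 or NCR1, compared with 1 and 2 of 32 in naïve and 2 and 3 of 8 in sham blood. Reads of the KLRC and TRBC genes, as of other near-identical families, may be divided unevenly between copies.

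The difference between coreceptor classes could be tested, as each blood library held both classes. UMIs were summed per library and class, and CD8-only cells were compared with cells with neither coreceptor by edgeR's quasi-likelihood test with the library as a block, a contrast that was added after the CD4-only cells had proved few. The p-values rest on only 3 libraries, and edgeR moderates the spread of each gene towards that of all genes. They are therefore no direct measure of how well the 3 libraries agree for a single gene. Of 3967 genes, 2 were higher in CD8-only cells (0.0504%) and 5 were lower (0.126%) at an adjusted p under 0.05. Levels in this contrast are CPM over all human genes.

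TRDC was at 6.20, 16.3 and 5.03 CPM in the CD8-only cells of naïve, sham and SCI blood and at 778, 635 and 447 CPM in cells with neither, a log2 difference of -6.03 ± 0.29 (SE, edgeR with Benjamini-Hochberg adjusted p = 2.57e-11). TRAC went the other way, at 1568, 1651 and 1704 CPM against 827, 718 and 729 CPM (1.11 ± 0.15, edgeR adjusted p = 4.91e-04). Both genes differed in the same direction in all 3 libraries, without overlap of the classes. TRDC passed the test in each alternative that was run, and TRAC in each but that without the sham library, where the edgeR adjusted p was 0.148.

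TYROBP and FCER1G, which encode signalling adaptors of NK and myeloid cells, were also lower in CD8-only cells. TYROBP was at 6.20, 0 and 1.68 CPM against 90.3, 73.6 and 185 CPM (edgeR adjusted p = 5.38e-06), and FCER1G at 12.4, 13.6 and 10.1 against 62.5, 138 and 160 CPM (edgeR adjusted p = 6.51e-05). In SCI blood, 7 of the 10 TYROBP-positive cells without a coreceptor also had TRDC. Neither adaptor reached the count filter once cells with KLRF1, NCAM1 or NCR1, or those with a single CD3 UMI, were left out or 3 of the 4 genes were required, so their difference in the remaining cells was not tested. IFITM3, an interferon-induced membrane protein, passed the test as lower (3.1, 29.8 and 20.1 against 41.7, 101 and 82.6 CPM, edgeR adjusted p = 0.0352), but not with DESeq2 (adjusted p = 0.9997), without the replicate block (0.451), without the sham library (0.475) or without marked doublets (0.0556). IFITM3 missed the count filter, and was not tested, without the SCI blood library, with 3 of the 4 genes, or without cells with KLRF1, NCAM1 or NCR1 or with a single CD3 UMI. IL7R also passed as lower (127, 306 and 281 against 271, 469 and 554 CPM, edgeR adjusted p = 0.0460). That call was lost in 8 alternatives, with DESeq2 (adjusted p = 0.9997), without the block (0.926), without the sham (0.339) or the SCI blood library (0.714), with 2 coreceptor UMIs (0.0854), with 3 of the 4 genes (0.786), with at least 2 CD3 UMIs (0.101) and without cells with KLRF1, NCAM1 or NCR1 (0.164). IGHM passed the test as higher (4.14, edgeR adjusted p = 0.0101), but its value was -0.49 with an adjusted p of 0.969 without the naïve cell rich in immunoglobulin. HOPX, KLRD1, ZNF683 and GZMK did not pass, with log2 differences of 0.02, 0.27, 0.40 and -0.20.

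**Figure D3:**
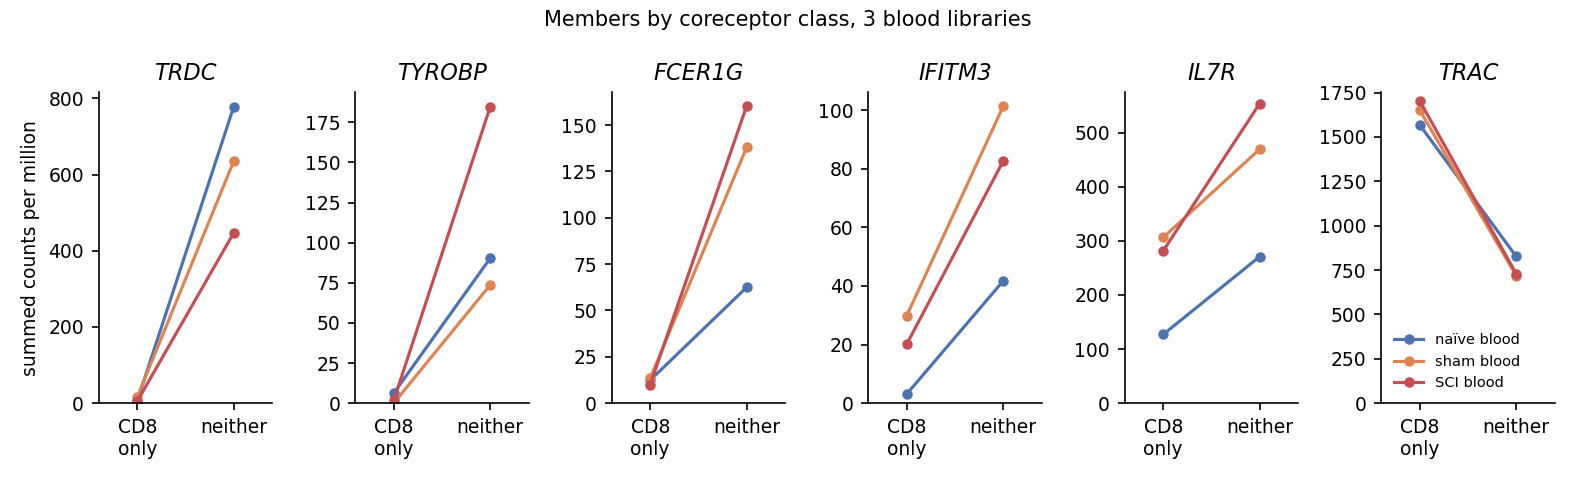
Summed CPM over all human genes (vertical axes, each from 0) of 6 genes in cytotoxic T cells with CD8 UMIs only and with neither coreceptor, 1 line per blood library. TRDC, TYROBP, FCER1G, IFITM3 and IL7R are lower and TRAC is higher in the CD8-only cells of all 3 libraries, with TRDC at 6.20, 16.3 and 5.03 against 778, 635 and 447.

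The contrast of CD8-only with CD4-only cells rested on only 3, 1 and 5 CD4-only cells. Of 3017 genes tested, 6 were higher in CD8-only cells (0.199%) and 0 were lower (0%), and 167 genes had an unadjusted p under 0.05. The chemokine CCL5 was at 2861, 4119 and 4287 CPM in CD8-only against 2408, 504 and 422 CPM in CD4-only cells (log2 difference 2.30 ± 0.40, edgeR adjusted p = 0.00809). NKG7, TRGC2 (a gamma chain constant region), the histone gene HIST1H4C and HMGB2, a chromatin protein of dividing cells, also passed, with the CD8-only sum higher in all 3 libraries, and CCL4 passed with it higher in 2 of 3. The result was fragile, as 0 genes passed without the SCI blood library or without marked doublets, and DESeq2 called 1 gene, CCL5.

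Expression in the cytotoxic T cells was then set side by side between the blood libraries, as log2 ratios of summed CPM for genes with at least 50 UMIs in the pair. The 3 comparisons share libraries, so they are not independent of each other. A ratio of at least 2-fold was reached by 41 of 3067 genes in sham over naïve blood (1.34%, of which 21 or 0.685% higher and 20 or 0.652% lower), by 99 of 4049 in SCI over naïve blood (2.45%, 51 or 1.26% higher and 48 or 1.19% lower) and by 60 of 4085 in SCI over sham blood (1.47%, 31 or 0.759% higher and 29 or 0.71% lower). The median ratio over all genes was within 0.03 of 0 in each. These counts rose to 278, 388 and 311 with a minimum of 20 UMIs and fell to 7, 13 and 9 with a minimum of 200.

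Granule genes gave no ratio past 2-fold, in a background where few genes did. Of 12 measured granule proteins other than the 4 genes of the rule, 0 reached 2-fold in any blood comparison, against 1.34%, 2.45% and 1.47% of all genes, so the count does not set these genes apart. Their medians were -0.30 in sham over naïve, with 4 of 12 above 0, -0.19 in SCI over naïve, with 3 above 0, and 0.02 in SCI over sham blood, with 6 above 0. PRF1 was detected in 82.9%, 88.9% and 82.3% of the cells in naïve, sham and SCI blood, and NKG7 in 99.2%, 98.8% and 98.9%. GZMA was at 2040, 2631 and 1931 CPM, highest in sham blood. GZMK was at 2598, 2184 and 1502 CPM, lowest in SCI blood, where its ratio over naïve was -0.79 (-0.92 to -0.66), while in the other T cells the same ratio was 0.35. Over the alternatives this GZMK ratio in the cytotoxic T cells ranged from -0.89 to -0.22. GZMK was detected in 82.6% (naïve) and 75.6% (SCI blood) of CD8-only cells, but in 95.9% and 56.3% of cells with neither coreceptor. The 5 to 7 measured genes of granule exocytosis had medians of -0.25, 0.05 and -0.08, and 0 reached 2-fold, a count that the same shares of all genes would also give.

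Among secreted mediators, CCL5, a chemokine stored in cytotoxic granules, was at 4049, 4850 and 4796 CPM in naïve, sham and SCI blood and was detected in over 96% of cells in each. CCL4 was at 673, 846 and 541 CPM, of which a single cell held 26.5% of the UMIs in sham and 24.5% in SCI blood. IFNG, the type II interferon, had a UMI in 4.88% (naïve), 17.3% (sham) and 20.4% (SCI) of blood cells, and its ratio was 2.37 (1.27 to 3.97) in SCI over naïve blood, against 0.05 in the other T cells. At 15.8 CPM the naïve level rested on few UMIs.

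Among effector transcription factors, HOPX stood highest in SCI blood. It was at 260 CPM in naïve, 318 in sham and 742 CPM in SCI blood, and was found in 31.7%, 48.1% and 71.3% of cells (15.6%, 17.3% and 40.0% after reduction to 1000 UMIs). Its ratio was 1.51 (1.20 to 1.84) in SCI over naïve and 1.22 (0.94 to 1.51) in SCI over sham blood, and 0.29 in sham over naïve blood, where the interval included 0. Blood B cells gave HOPX in at most 2.94% of cells. The other T cells moved in the same direction between SCI and sham blood, at 1.59. ZNF683 was at 68.4, 93.7 and 165 CPM, a ratio of 1.25 (0.65 to 1.95) in SCI over naïve blood, which became 0.53 among cells with at least 3 of the 4 genes.

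Of the 13 effector and residency factors measured in SCI over naïve blood, HOPX and ZNF683 were past 2-fold higher and 0 were lower, with a median of 0.32. In SCI over sham blood HOPX and BATF were past 2-fold higher and 0 of 13 were lower, with a median of 0.34. The shares of all genes past 2-fold were 1.26% higher and 1.19% lower in SCI over naïve, and 0.759% higher and 0.71% lower in SCI over sham blood. BATF, a factor of activated T cells, was at 197, 61.6 and 152 CPM, lowest in sham blood, and was past 2-fold in both comparisons with that library. TBX21, at 116, 88.8 and 127 CPM, did not reach 2-fold in any of them. Nor did EOMES, at 145, 91.2 and 81.9 CPM, or PRDM1, at 89.4, 71.5 and 56.5 CPM, both of which were lowest in SCI blood.

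Receptors shared with NK cells were divided. KLRD1 was at 305, 222 and 563 CPM in naïve, sham and SCI blood and was detected in 32.5%, 35.8% and 62.4% of cells, with a ratio of 1.34 (1.01 to 1.69) in SCI over sham and 0.88 in SCI over naïve blood. KLRG1, an inhibitory receptor of differentiated effector cells, was at 47.3, 54.2 and 123 CPM, a ratio of 1.34 (0.63 to 2.20) over naïve blood, which was 0.91 in CD8-only cells. FCGR3A (CD16) was highest in naïve blood at 152 CPM, against 14.8 in sham and 53.6 CPM in SCI blood. KLRC1 was at 255, 61.6 and 113 CPM, and 56.0% of its sham UMIs came from 1 cell. Over the list, 4 of 8 measured receptors were past 2-fold lower in sham over naïve blood, against 1 higher and 3 lower of 13 in SCI over naïve and 3 higher and 0 lower of 10 in SCI over sham blood. Among all genes, 0.652% were past 2-fold lower in the first comparison. The shares were 1.26% higher and 1.19% lower in SCI over naïve, and 0.759% higher and 0.71% lower in SCI over sham blood. The median of the first comparison, -0.76, ranged from -0.97 to -0.04 over the alternatives.

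Genes of naive and memory T cells gave opposite pictures for IL7R and CCR7. IL7R was at 223 CPM in naïve, 481 in sham and 480 CPM in SCI blood, so that both operated libraries stood above naïve blood (1.10 each) and were level with each other (0.00, -0.26 to 0.26). Both ratios were lower among cells with at least 3 of the 4 genes, at 0.65 for sham and 0.48 for SCI blood. CCR7 was found in 24.4%, 24.7% and 10.5% of the cells, and its ratio in SCI over naïve blood was -1.12 (-1.75 to -0.50), whereas it was 0.11 in the other T cells. TCF7 did not reach 2-fold.

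Of 6 measured inhibitory receptors, TIGIT and HAVCR2 were past 2-fold lower and 0 were higher in SCI over naïve blood, with a median of -0.46, and HAVCR2 alone was lower in SCI over sham blood. Among all genes, 1.26% were past 2-fold higher and 1.19% lower in SCI over naïve blood, and 0.71% lower in SCI over sham blood. TIGIT was at 326, 276 and 148 CPM in naïve, sham and SCI blood, a ratio of -1.14 (-1.53 to -0.75) in SCI over naïve, and the other T cells gave -1.20. HAVCR2 (TIM-3) was at 76.2, 86.3 and 33.9 CPM, with ratios of -1.17 over naïve and -1.34 over sham blood. PDCD1 (PD-1) was at 81.5, 93.7 and 119 CPM, highest in SCI blood, and did not reach 2-fold. LAG3 and CD96, at 239 and 96.0 CPM in SCI blood, did not reach 2-fold either. TOX, a transcription factor of chronically stimulated T cells, was at 113, 49.3 and 72 CPM and was lower in sham than in naïve blood (-1.18).

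Genes of the receptor chains differed between the libraries as well. TRDC was at 308, 190 and 134 CPM, a ratio of -1.20 in SCI over naïve blood. It became -0.73 with each coreceptor class given the same weight in both libraries, taken from its share of the pooled blood cells. TRGC1, the constant region of a gamma chain, was at 99.9, 106 and 222 CPM and was past 2-fold higher in SCI blood than in both naïve (1.13, 0.63 to 1.70) and sham blood (1.05), and the former ratio was 1.82 without TRDC-positive cells. In the other T cells the TRGC1 ratios were 0.91 and 1.28. TRBC1 was at 857, 407 and 905 CPM and TRBC2 at 960, 1492 and 828 CPM, so the sham library was low for one beta chain constant region and high for the other, whereas in the other T cells the sham over naïve ratios of these genes were -0.10 and 0.18.

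Type I interferon genes, which cells switch on when they sense interferon alpha or beta, stood mostly above 0 in sham over naïve blood and mostly below 0 in SCI over sham blood. In sham over naïve blood 21 of 28 measured genes were above 0 with a median of 0.28, and IFI44, IFI44L, IFIT1 and USP18 were past 2-fold higher. In SCI over naïve blood 10 of 30 were above 0 with a median of -0.31, and IFI27 and OASL were past 2-fold higher and MX1 lower. In SCI over sham blood 6 of 32 were above 0 with a median of -0.47, and 6 genes were past 2-fold lower, among them IFI44, IFI44L, IFI6, MX1 and RSAD2. Over all genes, 0.685% were past 2-fold higher in sham over naïve blood. The shares were 1.26% higher and 1.19% lower in SCI over naïve, and 0.759% higher and 0.71% lower in SCI over sham blood. Over the alternatives the medians kept their sign, at 0.04 to 0.38, -0.35 to -0.11 and -0.53 to -0.37.

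MX1, an antiviral GTPase, was at 452, 675 and 193 CPM in naïve, sham and SCI blood, a ratio of -1.80 (-2.1 to -1.5) in SCI over sham blood, and it was detected in 65.0%, 82.7% and 39.2% of cells. IFI44L was at 89.4, 207 and 70.6 CPM, with a ratio of -1.55 in SCI over sham blood. In the other T cells the same ratios were -1.14 and -1.35, so the direction was not particular to the cytotoxic T cells.

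IFI27, a mitochondrial protein strongly induced by interferon, was 1 of the 6 genes of its list above 0 in SCI over sham blood and the only 1 of them past 2-fold. It was at 15.8 CPM in naïve, 69.0 in sham and 388 CPM in SCI blood, and was found in 2 of 123, 3 of 81 and 55 of 181 cells (1.63%, 3.70% and 30.4%). A single cell held 83.3% of its naïve and 75.0% of its sham UMIs but only 6.18% of those in SCI blood, so that in SCI blood alone it was spread over many cells. Its ratio was 4.51 (3.48 to 6.08) in SCI over naïve and 2.47 (1.93 to 3.11) in SCI over sham blood, whereas the other T cells gave 1.61 and -0.74, with IFI27 in 1.31%, 4.67% and 4.22% of cells. Within SCI blood its level was 328 CPM in CD8-only cells and 306 CPM in cells with neither coreceptor, over all human genes.

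**Figure D4:**
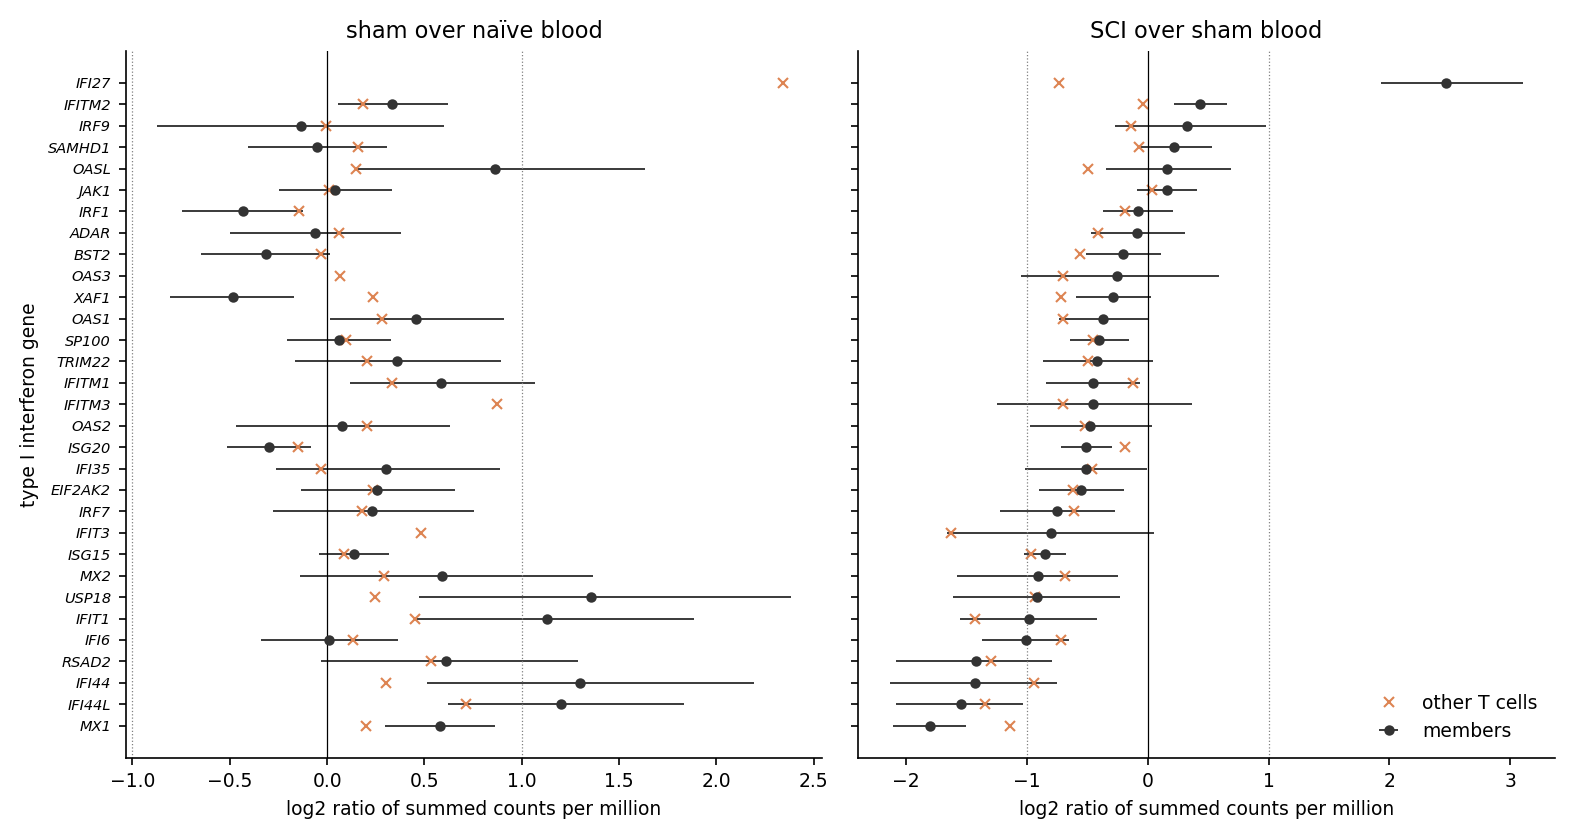
Log2 ratio of summed CPM (horizontal axes) for type I interferon genes in cytotoxic T cells (black points, labelled members, with 95% counting intervals) and in other T cells (orange crosses), for sham over naïve (left) and SCI over sham blood (right), with dotted lines at 2-fold. Most genes lie right of 0 on the left and left of 0 on the right, and IFI27 lies at 2.47 for the cytotoxic T cells but at -0.74 for the other T cells in SCI over sham blood.

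The genes with the largest ratios outside these lists were few. CEBPD was at 63.1 CPM in naïve, 210 in sham and 215 CPM in SCI blood, with ratios of 1.71 (1.06 to 2.45) and 1.74 (1.14 to 2.45) over naïve blood, and was found in 12.2%, 39.5% and 35.4% of cytotoxic T cells. It stayed at about 1% of the other T cells in every library, where the ratios were -0.26 and -0.10. FAM118A was at 26.3, 46.8 and 136 CPM, a ratio of 2.30 in SCI over naïve blood that also stood at 2.47 in the other T cells. VAMP5, a vesicle fusion protein, was higher in both operated libraries (1.2 and 1.5) and likewise in the other T cells (1.1 and 1.4). MATK, a kinase that restrains SRC-family kinases, was at 68.4, 29.6 and 136 CPM and had a ratio of 2.14 in SCI over sham blood.

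At the low end, PTMS, a small acidic nuclear protein, was at 402, 402 and 179 CPM, a ratio of -1.16 in SCI over sham blood. ORMDL2, a regulator of sphingolipid synthesis, was at 160, 109 and 63.5 CPM (-1.33 in SCI over naïve blood). IGHM, JCHAIN, IGLC2 and IGLC3 gave the lowest ratios of both comparisons with naïve blood, at -9.74 to -7.70, and rested on the naïve cell described above. JUN (1.25) and PCLAF (1.13), the latter a factor of replicating DNA, were among the 5 highest in sham over naïve blood. Cell cycle genes had medians of 0.38 in sham over naïve and 0.26 in SCI over naïve blood, and MKI67 was found in 17.1%, 23.5% and 16.0% of cells.

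Of 4 genes that the study had named for wound healing in its memory CD8+ T cell cluster, a choice made on these same samples and so not independent here, CXCR4 was past 2-fold higher in SCI over naïve blood (49.95 against 109 CPM, 1.09, 0.38 to 1.93). In sham blood CXCR4 was at 66.6 CPM. The study had set SCI against both naïve and sham blood. In SCI over sham blood 0 of the 4 genes were past 2-fold, 1 was above 0 and the median was -0.03. ANXA1 was at 1530, 2581 and 2578 CPM, at like levels in both operated libraries and 0.75 above naïve blood in each. ACTG1 (4703, 4598 and 4376 CPM) and FCER1G (34.2, 56.7 and 55.0 CPM) did not reach 2-fold. Of 21 genes of actin, annexins and S100 proteins, 0 reached 2-fold in any blood comparison. T cell receptor signalling (26 to 32 genes) also had 0 genes past 2-fold in each, with medians of 0.06, -0.04 and 0.03, and so had the 6 measured genes of MHC class II and T cell activation. As only 1.34%, 2.45% and 1.47% of all genes were past 2-fold, these counts of 0 do not set the lists apart.

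The injured cord contributed 8 cytotoxic T cells, and 1 of these, with 42464 UMIs, held 50.7% of their human UMIs and all 293 LYZ UMIs, as well as 886 of 920 HLA-DRA UMIs. LYZ is a monocyte gene and HLA-DRA an MHC class II gene. The 593 of 2986 genes past 2-fold between cord and SCI blood (19.9%, 150 or 5.02% higher and 443 or 14.8% lower) therefore weigh this cell as much as the other 7, and the cord cells are described by counts of cells. GZMA, NKG7, CCL5 and CCL4 were detected in 8 of 8 cells, and CD8 transcripts without CD4 in 7. GNLY and GZMH were also detected in 8 of 8, but the rule had used both to choose the cells.

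CD69, which retains T cells in tissue and marks recent activation, was found in 8 of 8 cord cells against 26.5% of the SCI blood cytotoxic T cells, and CXCR4 in 7 of 8 against 28.7%. CXCR6, a receptor of tissue-resident cells, was found in 5 of 8 against 14.9%, HAVCR2 in 6 of 8 against 8.29% and TOX in 6 of 8 against 23.8%. With the largest cell left out, these counts were 7, 6, 5, 5 and 5 of 7. ZNF683, also a factor of tissue-resident lymphocytes, was found in 3 of 8 cord cells, close to its SCI blood share given above. Other genes, tied to circulation, were found in a smaller share of cord cells. KLF2, a factor that maintains recirculation, was found in 2 of 8 cord cells against 96.1% in SCI blood, and CX3CR1 in 1 of 8 against 49.7%. CCR7, IFI27 and MKI67 were found in 0 of 8 cord cells, against 10.5%, 30.4% and 16.0% in SCI blood. A count of 0 of 8 would allow a share of up to 37.5%, so no difference is shown for CCR7, IFI27 and MKI67.

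Other T cells of the cord shared a part of this pattern. CD69 was found in 80.4% and CXCR4 in 55.4% of the 56 other cord T cells, against 17.3% and 35.2% of the other T cells of SCI blood, while KLF2 remained at 78.6% there. FOS, an immediate early gene, was in 5 of 8 cytotoxic and 75.0% of the other cord T cells, against 10.5% and 25.3% in SCI blood. The cord was dissociated with papain and its cells were enriched on magnetic columns before sorting, steps that blood did not pass through, so tissue and preparation cannot be told apart.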

How the data were processed

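Cells were captured with 10x Chromium 3' v3 chemistry, with 1 library for each of naïve blood, sham blood, SCI blood and injured cord. The deposited matrices hold raw UMI counts per gene and barcode, made by the authors with Cell Ranger (3.1.0 per the file headers) against hg38 and mm10 together, for the barcodes that Cell Ranger kept as cells. The authors' later quality filters, doublet removal and clusters were not applied here. Cells were chosen by the rule given in the report, and members, gene lists and tests were chosen with earlier results of these data known.

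Counts were summed over cells per library, and CPM left out ribosomal and mitochondrial genes. Ratios had 0.5 counts added and exact binomial intervals (95%), and a gene was called past 2-fold at an absolute log2 ratio of at least 1 with at least 50 counts. Named genes were those of 17 gene lists and 10 marker lists, the 5 highest and lowest ratios per blood comparison (at least 100 counts and 50 CPM), and the 10 at each end of the contrasts of cells. HLA class I, receptor segments and genes often deleted between people were not named, and a few other genes are not reported here. Shares were recomputed after thinning cells to 1000 UMIs (seed 1). A Scrublet-type score (scanpy 1.11.5) marked doublets, up to 0.8% per 1000 barcodes.

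Coreceptor classes were tested with edgeR 4.0.16 (R 4.3.3) by the quasi-likelihood test with TMM, filterByExpr, the library as block and Benjamini-Hochberg adjustment over all genes tested. DESeq2 1.42.0 was an alternative. Same-numbered samples are the 2 class sums of 1 library, which come from the same pool of cells and so pair by construction. The scripts for ratios and class tests were tested on simulated data. Python 3.11.15, numpy 2.4.6, scipy 1.17.1 and pandas 2.3.3 were used. Intervals cover counting error only, and depth per cell limits which cells meet the rule.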

Additional observations from a re-analysis of the deposited data

Results flagged for a closer look

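IFI27 moved in opposite directions in the cytotoxic T cells and the other T cells between SCI and sham blood. Its log2 ratio was 2.4682 in the cytotoxic T cells and -0.74 in the other T cells of the same libraries. With 1 library per condition the difference between these ratios was not tested. Among the cytotoxic T cells alone the ratio stayed between 2.15 and 2.95 over the alternatives.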

How the results depend on the processing

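Requiring 3 of the 4 genes gave shares of 0.910%, 1.16% and 1.85% of human cells in naïve, sham and SCI blood, and the rule after thinning gave 1.31%, 1.23% and 1.79%. The CD8-only share became 43.0%, 55.0% and 47.7% with the thinned rule, 42.6%, 53.1%, 42.2% and (cord) 37.5% with thinned coreceptors, 45.5% (naïve) and 57.5% (SCI blood) with 2 coreceptor UMIs, and 100% in cord with 3 of the 4 genes. The CD4-only share became 0% in all 3 blood libraries with the thinned rule, 0% in sham blood with thinned coreceptors or without doublets, and 0.870% in SCI blood with 3 of the 4 genes. Genes past 2-fold numbered 278, 388, 311 and (cord) 1620 with at least 20 counts and 7, 13, 9 and 100 with at least 200. Mean per-cell CPM gave 64 for sham over naïve and 93 for SCI over sham blood, and CD8-only cells gave 63 for SCI over naïve blood. The same coreceptor weights could not be applied to cord, which lacked 2 classes.

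For CD8-only against CD4-only cells, DESeq2 called 1 gene, no count filter 19, 2 coreceptor UMIs 10, no marked doublets 0 and no replicate block 5, and leaving out 1 library gave 0 to 11. For CD8-only against neither (added after seeing the data, as were the settings on thinned coreceptors, CD8-only cells, CD3 UMIs, NK cell genes and the immunoglobulin-rich cell), DESeq2 called 4, no count filter 26, no replicate block 4, 3 of the 4 genes 3, at least 2 CD3 UMIs 3 and without cells with KLRF1, NCAM1 or NCR1 2, and leaving out 1 library gave 4 to 15. IGHM reversed to -0.49 without the immunoglobulin-rich naïve cell. Of 71 ratios of named genes past 2-fold, 783 of 821 recomputed values moved by less than counting error and 0 reversed. Of 646 recomputed list medians, 95 changed sign. Few cells per library set the limits of depth.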
